A study of Mus musculus with 6 samples.

Results

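The transcription factors examined here regulate lateral plate, cardiac and visceral mesoderm, and were chosen by name: *Gata2*, *Gata3*, *Gata4*, *Gata5*, *Gata6*, *Hand1*, *Hand2*, *Tcf21*, *Nkx2-5* and *Isl1*. These are 10 of the 25039 genes in the deposited RNA-Seq table, each represented by its RefSeq transcript with the highest mean. The libraries were made from total RNA of mouse embryonic fibroblasts (MEFs), with 3 samples from WT and 3 from *Anp32e* null (*Anp32e*-/-) cells. MEFs are primary cells grown from embryos, and these were used below passage 8, with no treatment named in the labels. ANP32E is a histone chaperone that removes the histone variant H2A.Z from chromatin. The study describes its cell culture samples as biological replicates, and whether those of a genotype came from separate embryos was not given in the sources used here. For every transcript the table lists 1 mean over all 6 libraries of counts that were divided by a size factor per library, here named the mean normalized count. The remaining columns hold the outcome of the authors' own test of the genotypes and were not used here, so the levels below belong to WT and *Anp32e* null MEFs together and no difference between the genotypes was tested. *Anp32e* itself had a mean of 2190 normalized counts over both genotypes, which does not check the genotype of any library.

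GATA factors carry zinc fingers that bind the short DNA word GATA. *Gata1* to *Gata3* are best known from blood, endothelial and neural lineages, and *Gata4* to *Gata6* from heart, gut and other tissues of mesoderm and endoderm. HAND1, HAND2 and TCF21 are basic helix-loop-helix (bHLH) proteins, which pair with widely expressed E proteins and bind E-boxes. NKX2-5 is a homeobox factor of heart precursors, and ISL1 is a LIM homeobox factor of heart precursors and motor neurons. GATA4, HAND2 and NKX2-5 act together in the heart, and BMP signals lie upstream of several of these genes.

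Promoter sequences are shown for *Gata2*, whose transcripts begin at different first exons and had different means, for *Hand2*, which was present, and for *Isl1*, which had no reads. The 250 bases before each start are shown 5′ to 3′ on the strand of the gene (RefSeq, GRCm38.p6). They are the upstream *Gata2* start, on the plus strand at chr6:88193641-88193890, the downstream *Gata2* start at chr6:88198414-88198663, *Hand2* on the plus strand at chr8:57320733-57320982, and *Isl1* on the minus strand at chr13:116309689-116309938. Capitals mark the CCAAT box (CCAAT, either strand), a word bound by NF-Y, in the *Gata2* and *Isl1* sequences, and the GATA site (the word AGATAA, or the word TGATAA, or either with G as its last letter, on either strand) in that of *Hand2*.
Gata2, upstream start: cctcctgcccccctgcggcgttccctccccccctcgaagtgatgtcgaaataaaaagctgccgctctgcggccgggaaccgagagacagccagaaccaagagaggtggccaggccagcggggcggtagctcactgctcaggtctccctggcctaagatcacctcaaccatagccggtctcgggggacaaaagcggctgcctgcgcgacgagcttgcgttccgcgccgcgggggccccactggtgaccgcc
Gata2, downstream start: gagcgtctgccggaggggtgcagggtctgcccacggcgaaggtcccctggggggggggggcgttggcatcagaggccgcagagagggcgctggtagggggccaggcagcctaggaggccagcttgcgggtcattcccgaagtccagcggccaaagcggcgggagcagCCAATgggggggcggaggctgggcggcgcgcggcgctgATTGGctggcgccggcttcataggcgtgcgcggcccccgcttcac
Hand2: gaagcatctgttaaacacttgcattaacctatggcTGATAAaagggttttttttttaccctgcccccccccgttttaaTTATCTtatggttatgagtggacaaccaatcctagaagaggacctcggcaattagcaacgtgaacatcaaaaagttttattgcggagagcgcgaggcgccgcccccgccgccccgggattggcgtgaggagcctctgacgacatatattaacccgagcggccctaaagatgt
Isl1: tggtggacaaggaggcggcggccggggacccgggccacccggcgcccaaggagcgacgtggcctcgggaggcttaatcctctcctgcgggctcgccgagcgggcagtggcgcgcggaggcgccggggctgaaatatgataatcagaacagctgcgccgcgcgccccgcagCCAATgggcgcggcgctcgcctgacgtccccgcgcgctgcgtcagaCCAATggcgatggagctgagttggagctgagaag
The upstream *Gata2* sequence held no CCAAT box, while the downstream *Gata2* and the *Isl1* sequence held 2 each. The *Hand2* sequence held 2 GATA sites.

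Of the 10 regulators, 5 had a mean of at least 10 normalized counts, against 56.9% of all genes in the table. A further 3 had reads below that level, and *Gata5* and *Isl1* had none. *Gata3* had the highest mean, 997 normalized counts, followed by *Gata2* with 849 and *Gata4* with 575. *Gata3* is known for its part in T cells and sympathetic neurons, *Gata2* in blood progenitors and endothelium, and *Gata4* in the heart. *Gata6*, a factor of heart and endoderm, had 230 normalized counts, and *Hand2*, which acts in heart, limb and sympathetic neurons, had 205. A wide gap separated these 5 genes from the others, of which *Nkx2-5* was highest with 5.90 normalized counts. *Hand1* and *Tcf21* had 0.691 and 0.340. *Tcf21* marks fibroblast and epicardial precursors of several organs, and *Hand1* acts in the heart and the trophoblast. The table gives no spread between libraries for the 5 most abundant genes, so which neighbours in this order differ beyond their spread is unknown. In RNA of whole cultures, fewer cells that express a gene and less of its RNA in each cell cannot be told apart.

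Genes were compared with each other per kilobase of transcript, using the length of the matching GENCODE transcript. On this scale *Gata3* had 310 mean normalized counts per kilobase, *Gata2* 238 and *Gata4* 169. *Hand2*, with 87.0 per kilobase, came before *Gata6* with 71.2, which was the reverse of their order without the correction for length. *Nkx2-5* had 3.87, *Hand1* 0.363 and *Tcf21* 0.269 mean normalized counts per kilobase. Members of the GATA family thus held the first 3 places on both scales.

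**Figure D1:**
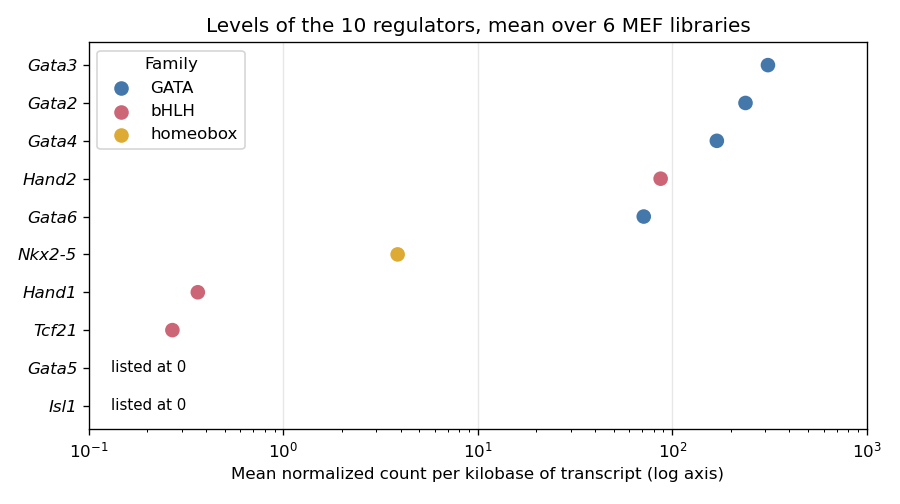
Mean normalized count per kilobase of transcript over the 6 libraries (log axis) for the 10 regulators, 1 point per gene, coloured by protein family, with no error bars because libraries were pooled. *Gata3*, *Gata2* and *Gata4* lie highest at 310, 238 and 169, *Hand2* and *Gata6* follow at 87.0 and 71.2, and *Gata5* and *Isl1* are listed at 0.

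Placed among the 19271 genes with reads, *Gata3* and *Gata2* lay at percentiles 62.6 and 59.99 of the mean normalized count. *Gata4* lay at percentile 55.0, *Gata6* at 46.1 and *Hand2* at 45.3. The most abundant of these regulators were thus near the middle of the genes with reads. *Nkx2-5* lay at percentile 22.7, *Hand1* at 9.08 and *Tcf21* at 5.37. On the scale per kilobase, known for 92.0% of the genes with reads, *Gata3* lay at percentile 61.8 and *Hand2* at 46.0.

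**Figure D2:**
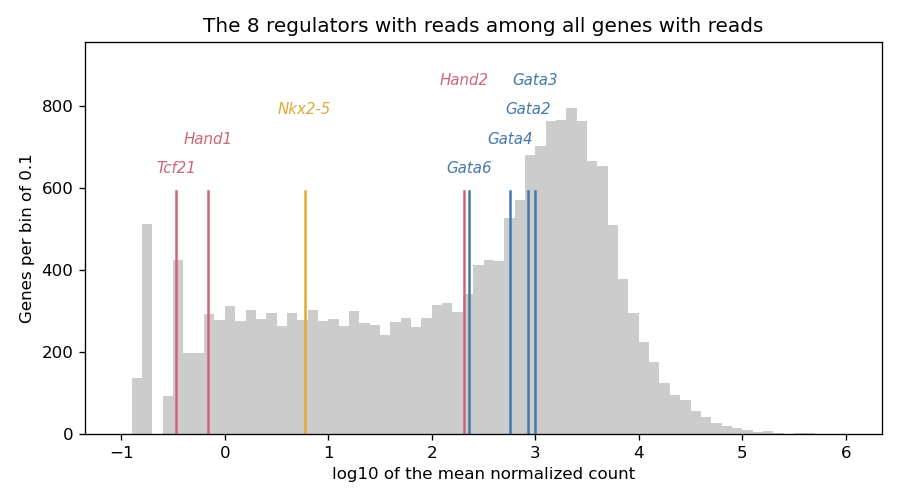
Histogram of the log10 mean normalized count of the 19271 genes with reads (grey, genes per bin of 0.1), with the 8 regulators that had reads as coloured lines. *Gata3* at 997 and *Gata2* at 849 normalized counts stand on the rising side of the main peak, while *Nkx2-5* at 5.90 stands in the flat range of low means and *Hand1* at 0.691 and *Tcf21* at 0.340 stand near the left end, where means of a few reads form separate steps.

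*Gata2* spans positions 88193891 to 88207032 of chromosome 6 (GRCm38, plus strand). Its transcript NM_008090 had a mean of 849 normalized counts and NM_001355253 one of 831. In GENCODE the matching transcripts share their later exons, apart from the last bases of the final one, and differ in the first, which runs from 88198334 to 88198881 in NM_008090 and from 88193891 to 88194000 in NM_001355253. The means differed by 18.0 normalized counts, or 2.12% of the higher one. In these gene models this difference is, nearly in full, the reads on one first exon less those on the other. Given that no library had fewer reads on NM_008090, whole reads in the 6 libraries met this difference in 1 way only. It came from a net 18, 27, 13, 24, 15 and 12 reads, in the order of libraries a to f explained below. Solutions with fewer reads on NM_008090 in any library were not searched. Under this condition every library had more reads listed on the transcript with the downstream first exon. In GENCODE that exon is also the longer one, with 548 against 110 bases. RefSeq places the downstream start inside that exon, so its length in the counted gene model may be smaller.

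*Gata3* lies on chromosome 2 from 9857078 to 9890034 on the minus strand, and its 4 RefSeq transcripts had the same mean of 997 normalized counts. *Gata4* lies on chromosome 14 from 63198922 to 63271692 on the minus strand, and its 2 transcripts also shared 1 mean, 575. Reads were thus listed on each transcript that they overlapped, so the means of a gene's transcripts cannot be added. *Hand2* lies on chromosome 8 from 57320983 to 57324633 on the plus strand, with 2 exons. The antisense gene *Hand2os1* shares 461 bases with its transcript and had a mean of 5.73 normalized counts, against 205 of *Hand2*. The study's methods name default settings for counting, which in featureCounts ignore the strand and also leave out reads that overlap several features. Since reads were listed on each of several transcripts, the settings in force are uncertain, and reads of *Hand2* and *Hand2os1* may not be fully separate. The same limit holds for *Gata3*, where *Gm13256* overlaps 155 bases on the opposite strand. *Gata6* lies on chromosome 18 from 11052064 to 11085635 on the plus strand, has 1 transcript in the table and shares 93 bases with *1010001N08Rik* on the opposite strand.

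For genes with few reads the decimals of a mean hold the reads of every library. Reads of 1 library alone gave 6 steps between 0.147 and 0.183 in the lowest means, from which size factors between 0.909 and 1.13 followed. The libraries were named a to f in order of falling size factor. They carry no label, so which of them are WT and which *Anp32e* null is unknown, and they entered no comparison of the genotypes. Each of the 3623 different means below 10 was met by whole reads in exactly 1 way. This gave the reads of 5 of the 10 regulators, while the means of *Gata2*, *Gata3*, *Gata4*, *Gata6* and *Hand2* were above the limit of 50 set for this step.

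*Nkx2-5*, on chromosome 17 from 26838664 to 26845009, had 35 reads over the 6 libraries (95% exact Poisson interval 24.4 to 48.7, which covers counting error only). Libraries a to f had 4, 7, 7, 2, 5 and 10 reads, with a median of 6.001 normalized counts and a range from 2.03 to 11.0. Reads of this heart factor were thus present in each library, lowest in d and highest in f. *Hand1*, on chromosome 11 from 57828705 to 57832818, had 4 reads (interval 1.09 to 10.2), of which 2 were in library c and 2 in library f. *Tcf21*, on chromosome 10 from 22817281 to 22820174, had 2 reads (interval 0.242 to 7.22), with 1 each in libraries c and e. At this depth the levels of *Hand1* and *Tcf21* rest on these few reads, and their intervals overlap.

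*Gata5*, on chromosome 2 from 180325133 to 180334699, and *Isl1*, on chromosome 13 from 116298281 to 116309689, had 0 reads in all 6 libraries. A count of 0 allows up to 3 reads over the 6 libraries by the usual one-sided limit, a mean of 0.499 normalized counts, and up to 3.69 reads by the exact Poisson interval used for the genes above. These bounds overlap the intervals of *Hand1* and *Tcf21*. *Gata5os*, which overlaps *Gata5* on the opposite strand, was also listed at 0.

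**Figure D3:**
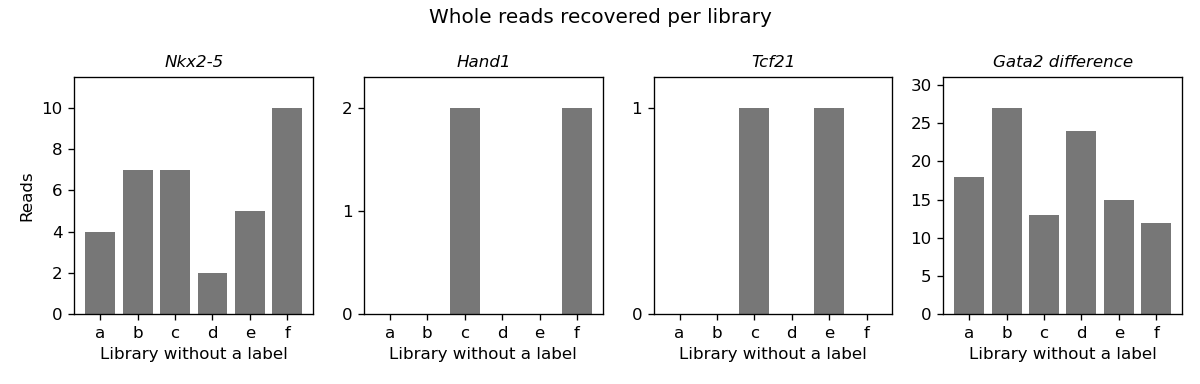
Whole reads (bars, from 0) of *Nkx2-5*, *Hand1* and *Tcf21*, and the net reads by which *Gata2* transcript NM_008090 exceeded NM_001355253, in each of the 6 libraries without a label (a to f); the scales differ between panels. *Nkx2-5* had between 2 and 10 reads in every library, and *Hand1* and *Tcf21* had reads in 2 libraries each. The *Gata2* difference ranged from 12 to 27 reads, on the condition that no library had fewer reads on NM_008090.

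The sequences around the starts were examined for 7 of the regulators with 8 starts, *Gata2* having 2 of them. *Gata4*, *Gata6* and *Hand1* were without an entry. Windows reached from 250 bases before to 50 after the start. The starts of these genes had a median of 68.2% G and C and 24 CpG dinucleotides, against 52.7% and 7 for all 32851 windows of this length. *Isl1* had the most with 37 CpGs, while *Tcf21* had 8 and *Nkx2-5* had 9. Starts rich in CpG were thus found at *Isl1* and *Gata5* (26 CpGs), which had no reads. They were also found at the 2 most abundant genes, *Gata3* (22) and *Gata2* (32 and 29), while *Hand2* had 17. Abundant genes without an entry, *Gata4* and *Gata6*, could not be judged. A GATA site was present at 4 of the 8 starts and in 29.8% of all windows. An E-box (CANNTG, the word bound by bHLH dimers) was present at 6, against 72.3% of all windows. A GC box (GGGCGG, bound by SP1) was present at 5, against 35.7%, and a CCAAT box at 4, against 37.4%. The NK2 site TNAAGTG was at 0 of the 8 starts and in 11.5% of all windows. Both strands were searched, and the words can share bases with each other, as CCAAT and an E-box do in CCAATTG. The windows of all genes were not matched to these starts in G and C, which bears on words such as the GC box. These matches are descriptions of the sequence, not of binding.

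Related genes were examined by lists, 93 genes in all, of which 65 (69.9%) had a mean of at least 10 normalized counts, against 56.9% of all genes. Of the partners of the GATA factors, 8 of 11 were at this level. *Ldb1*, an adaptor of LIM and GATA complexes, had a mean of 6362 normalized counts, *Lmo4* of 5192 and the acetyltransferase gene *Crebbp* of 2719. *Zfpm1* and *Zfpm2*, which encode the FOG cofactors of GATA factors and were singled out after their values were seen, had 1014 and 499. Per kilobase they had 299 and 100.2 mean normalized counts, which placed *Zfpm1* between *Gata3* and *Gata2* and *Zfpm2* between *Gata4* and *Hand2*.

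Genes that pair with or resemble HAND and TCF21 reached 10 normalized counts in 11 of 14 cases. *Tcf3*, which encodes the E proteins E12 and E47, had a mean of 7702 normalized counts. The inhibitors of bHLH pairing *Id3* and *Id1* had 16746 and 11519. *Hand2* was thus measured together with abundant RNA of its possible partners, while *Mesp1*, with 1 read in library a, and *Tcf15*, with 4 reads, were close to *Tcf21* and *Hand1* in level. These low genes were singled out after their values were seen. Of the BMP genes, 12 of 14 reached 10 normalized counts, led by the mediators *Smad4* with 5510 and *Smad5* with 2954 and the receptor gene *Bmpr1a* with 3571.

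Among other cardiac regulators 14 of 19 had at least 10 normalized counts, and *Irx4* and *Bmp10* had no reads. The highest were *Srf* with 14221, *Mef2a* with 2855 and *Mef2d* with 2818 normalized counts, all widely expressed factors. *Tbx20*, *Tbx5* and *Myocd*, which are less widely expressed and were singled out after their values were seen, had 696, 376 and 10.5. Per kilobase *Tbx20* had 76.6 and *Tbx5* 95.4 mean normalized counts, near *Hand2* with 87.0 and *Gata6* with 71.2. Of 15 regulators of visceral and lateral plate mesoderm, 13 reached 10 normalized counts, among them *Prrx1* with 4902 and *Osr1* with 1752, and *Tlx1* had no reads. The list of other GATA and NK2 family genes also held genes related only by the zinc finger, and *Isl2*. *Gatad2a*, *Gatad1* and *Trps1*, which share only the zinc finger with GATA factors, had 12405, 8305 and 1612 normalized counts, while *Nkx2-4* had no reads and *Gata1*, singled out after its value was seen, had 1. In all, 7 of these 12 genes were below 10, namely *Gata1* and all listed NK2 genes, of which *Nkx2-9* was highest with 4.37. *Isl2*, a LIM homeobox gene like *Isl1*, had 58.9 normalized counts. *Nkx2-9* and *Isl2* were singled out after their values were seen. Cardiac effector genes reached 10 in 3 of 10 cases: the natriuretic peptide gene *Nppb* had 615 normalized counts, *Tnnt2* 385 and *Nppa* 16.3. The myosin genes *Myh6* and *Myh7*, which define cardiomyocytes and were singled out after their values were seen, had 1 read each.

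**Figure D4:**
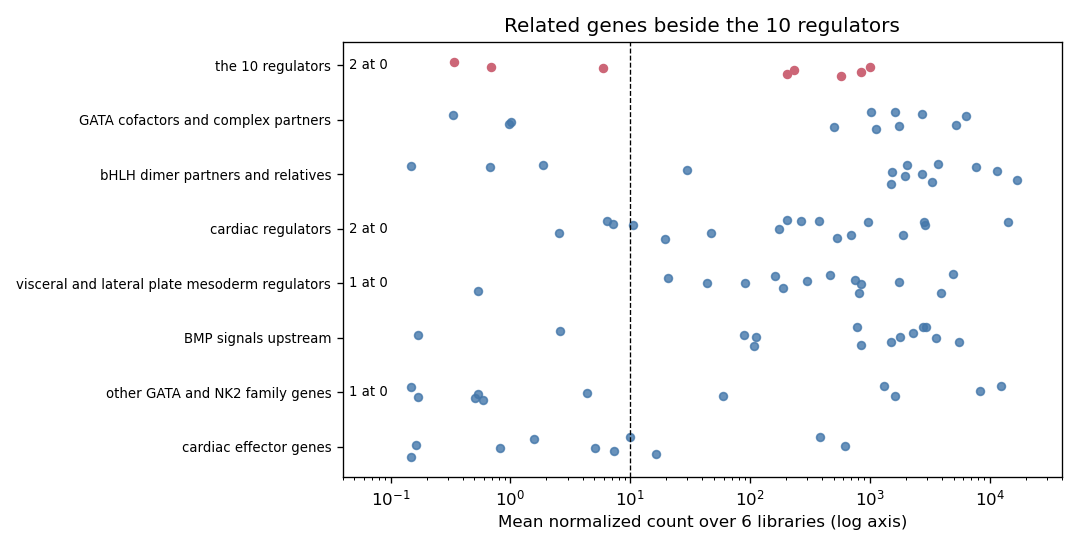
Mean normalized count over the 6 libraries (log axis), 1 point per gene, for the 10 regulators (red, top) and 7 lists of related genes (blue), with the number of genes without reads at the left and a dashed line at 10. Regulators fall into 5 genes from 205 to 997 and 5 below 10, while 8 of 11 GATA partners and 12 of 14 BMP genes lie above the line and 7 of 10 cardiac effector genes lie below it.

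Markers of cell types were read from the same means, and those named beyond the 3 highest of a list and those at 0 were singled out after their values were seen. Of all genes in the table, 56.9% reached 10 normalized counts, so reaching it does not by itself mark a cell type. Of the fibroblast markers, which check the labelled cell type, 11 of 12 reached 10 normalized counts, with *Vim* at 330695, *Fn1* at 86443 and *Col1a1* at 26142 normalized counts, while *Lum* had 1.33. All 10 mesothelial markers in the table had at least 10 normalized counts, between 24.4 for *Bnc1* and 7400 for *Krt19*, with *Upk1b* at 919. The reads of *Bnc1* were uneven, with none in libraries a and b. *Gata4* and *Gata6* are known from mesothelium too, and the part of such cells in their levels was not tested. Endothelial markers reached 10 in 3 of 7 cases, *Kdr* at 2958, *Tek* at 34.4 and *Erg* at 23.9, while *Pecam1* had 4.47, *Cdh5* 3.54 and *Emcn* 0. Blood markers reached 10 in 2 of 7 cases, *Cd68* at 257 and *Csf1r* at 40.1, with *Ptprc* at 3.09 and *Hbb-bt* at 0. Of the markers of sympathetic neurons and neural crest, where *Gata2*, *Gata3* and *Hand2* also act, 1 of 7 reached 10: *Phox2a* had 20.4 normalized counts, *Dbh* was at 0, and *Th* had 1 read. Trophoblast markers, relevant to *Gata3*, reached 10 in 1 of 6 cases, *Eomes* at 259, with *Cdx2* at 0, and of the epithelial ones 1 of 5, *Cdh1* at 67.1, reached 10.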

How the data were processed

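RNA of 3 WT and 3 *Anp32e* null MEF samples was examined from 1 table with a line for each of 42361 RefSeq transcripts. The only column used holds a signal, the reads per transcript averaged across the 6 libraries, which the authors aligned to mm10 with STAR, counted with featureCounts and divided by size factors of DESeq2. The other 5 columns hold the authors' own comparison of the genotypes (fold change, its error, test statistic, p-value and adjusted p-value) and were not used. The methods of the study name default settings for counting. Total counts per library are not given in the sources used here.

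RefSeq (GRCm38.p6) placed 42198 transcripts in genes and left 163 without one. Positions and transcript lengths came from GENCODE M21 on GRCm38, and promoter sequences from RefSeq. Single-read steps were the 6 lowest means above 0 refined by least squares over 377 means below 1. Whole reads were accepted where exactly 1 set met a mean of at most 50 within its last listed digit (a difference of up to 1.2e-13). For *Gata2* the difference between the means of its transcripts took the place of a mean. Its limit was wider, set by the last digits of both means. The recovery was tested on simulated data made with the same refined steps, so errors in the steps themselves were not tested. Members, lists and named genes (the 10 regulators, *Anp32e* and, per list, the 3 highest genes and defining markers at 0) were chosen with earlier results of these data known. *Muc16* was not in the table, and a few genes that this rule names are not reported here. No test was run. Alternatives were another transcript per gene, other backgrounds and minimum means, other tolerances, leaving out libraries, and other windows or strands for motifs. Python 3.11.15, numpy 2.4.6, pandas 2.3.3, scipy 1.17.1 and matplotlib 3.10.9 were used.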

Additional observations from a re-analysis of the deposited data

How the results depend on the processing

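Another transcript could change the level of *Gata2* alone, since the others had 1 mean each, and gave 831 in place of 849. Of the regulators, 5 reached 10 and 50 normalized counts and 6 reached 1. Of the related genes, 76 reached 1 and 58 reached 50. The share of all genes in the table was 68.4% at 1, 56.9% at 10 and 49.3% at 50 normalized counts. With 6 of 10 at 1 and 5 of 10 at 10, the regulators lay below this share. With 5 of 10 at 50 they lay close to it. The related genes lay above it at each of these levels. Per kilobase, *Hand2* and *Gata6* exchanged places 4 and 5. Percentiles depended on the genes counted: among all 25039 genes *Gata3* lay at 71.2 and *Hand2* at 57.9, and among genes with at least 10 normalized counts at 49.4 and 25.9. Recovered reads of *Nkx2-5*, *Hand1* and *Tcf21* were the same at a tolerance 10 times wider. Those of *Nkx2-5* and *Hand1* were also the same at 10 times narrower, where *Tcf21* had no solution. Without 1 library each, the mean of *Nkx2-5* ranged from 4.88 to 6.67, of *Hand1* from 0.389 to 0.829 and of *Tcf21* from 0.195 to 0.408. When only the bases before the start were searched, GATA sites were at 3 starts (26.5% of all promoters), E-boxes at 4 (66.2%) and CCAAT boxes at 3 (33.8%). No paired analysis was possible because the table holds no values of labelled libraries. Depth limits *Hand1* and *Tcf21*, and the lack of values per library limits *Gata2*, *Gata3*, *Gata4*, *Gata6* and *Hand2*.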

Other observations

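Some related genes with few reads differed widely between the libraries without a label. They were picked after their values were seen, and the libraries were not assigned to genotypes. *Bnc1*, a mesothelial marker, had 0, 0, 43, 8, 45 and 44 reads in libraries a to f, so that a and b were without reads and c, e and f stood together above 40. The endothelial factor *Erg* had 42, 40, 3, 45, 5 and 13 reads, high in a, b and d. The mesoderm gene *Mesp2* had 47, 46, 7, 55, 17 and 11 reads, again high in a, b and d. Divided by size factors, *Erg* ranged from 37.1 to 45.6 normalized counts in a, b and d and from 2.92 to 14.3 in c, e and f. The *Gata2* transcript difference was 18, 27, 13, 24, 15 and 12 reads in libraries a to f. Divided by size factors, it was 15.9, 25.7, 12.7, 24.3, 16.0 and 13.2 normalized counts, so that a and e were nearly equal. The few reads of *Hand1* were in c and f, and those of *Tcf21* in c and e. *Nkx2-5*, with 2.03 normalized counts in d and 11.0 in f, was not higher in all of a, b and d. Other listed genes did not follow the same grouping. *Sox10* had 1, 1, 10, 14, 20 and 2 reads in a to f, and *Osr2* had 45, 50, 38, 30, 40 and 59. Because the grouping was picked from these same data, the values of the regulators give it no support. What sets these libraries apart was not tested.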
